A study of Mus musculus with 4 samples.

Results

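The 29 genes described here are interferon response genes from a list of names, and all 29 were among the 13742 genes of the count table. They were read in single haematopoietic stem cells (HSCs) of mouse bone marrow, in cells with at least 10000 counts and at least 1000 genes detected, which kept 292 of 297 cells. For description they were divided by what is known of their induction into 17 type I members (Ifit1, Ifit2, Ifit3, Isg15, Irf7, Stat2, Bst2, Oasl2, Oas1a, Rsad2, Ifi27l2a, Ifi203, Xaf1, Usp18, Zbp1, Rtp4 and Ifi27) and 12 gamma-type members (Irf1, Iigp1, Gbp2, Gbp3, Gbp7, Igtp, Irgm1, Ifi47, Psmb8, Psmb9, Psmb10 and Nlrc5). The division is one of emphasis, since many of these genes answer to both kinds of interferon.

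The mice were wild-type, 8 weeks old and untreated as far as the labels say, and no interferon was given. Each cell had the ESLAM SK surface phenotype (EPCR/CD201, CD150, Kit and Sca-1 present, CD48 and lineage markers absent) and came from the CD27-negative or the CD27-positive gate. The cells were pooled after barcoding into 4 libraries of 74, 75, 71 and 72 kept cells, and the labels of every library name both gates. No source gave the gate of a cell, so the libraries formed 1 group (n = 4), and nothing was compared between the gates. Whether a library stands for a mouse of its own is not in the labels, so an SD over libraries may be technical.

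Interferons are secreted proteins of antiviral defence. Type I interferons bind the receptor of Ifnar1 and Ifnar2 and act through Jak1, Tyk2 and a complex with Stat2 and Irf9 that binds the interferon-stimulated response element (ISRE), whereas interferon gamma binds Ifngr1 and Ifngr2 and acts through Jak1 and Jak2 on genes with the gamma-activated site (GAS). Interferon is known to bring quiescent HSCs into cycle, and stem cells are known to hold some interferon-stimulated genes on without infection.

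The promoter letters are shown because they are the part of a gene that these factors read. RefSeq promoter windows (GRCm38.p6, 250 bases before to 50 after a start site) were at hand for 22 of the 29 members. No window was at hand for Usp18, Zbp1, Rtp4, Ifi27, Ifi27l2a, Nlrc5 or Iigp1. The 150 bases just before the start site are printed below for 5 members: Ifit1 and Isg15 as type I members with ISRE matches, Bst2 and Igtp with both motifs, and Irf1 with a GAS match. They lie at chr19:34640739-34640888 (plus strand, Ifit1), chr4:156200819-156200968 (minus, Isg15), chr8:71537473-71537622 (minus, Bst2), chr11:53769864-53770013 (plus, Irf1) and chr11:58199406-58199555 (plus, Igtp). Capitals mark matches to the ISRE core, that is GAAA and GAAA with any 2 bases between them or, on the other strand, TTTC and TTTC likewise, and to the GAS, TTC and GAA with any 3 bases between them, which reads the same on both strands. Neighbouring matches share letters in Isg15 and Bst2.
Ifit1: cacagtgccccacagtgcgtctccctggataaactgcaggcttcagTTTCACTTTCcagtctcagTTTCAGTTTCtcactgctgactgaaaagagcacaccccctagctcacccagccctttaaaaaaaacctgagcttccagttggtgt
Isg15: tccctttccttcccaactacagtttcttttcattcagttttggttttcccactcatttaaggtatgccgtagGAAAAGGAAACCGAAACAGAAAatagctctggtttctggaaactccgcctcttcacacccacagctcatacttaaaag
Bst2: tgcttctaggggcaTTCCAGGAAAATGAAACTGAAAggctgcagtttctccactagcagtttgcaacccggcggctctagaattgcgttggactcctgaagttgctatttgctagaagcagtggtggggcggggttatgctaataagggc
Irf1: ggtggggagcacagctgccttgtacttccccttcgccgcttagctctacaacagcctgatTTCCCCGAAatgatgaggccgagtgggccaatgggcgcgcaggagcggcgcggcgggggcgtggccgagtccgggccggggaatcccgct
Igtp: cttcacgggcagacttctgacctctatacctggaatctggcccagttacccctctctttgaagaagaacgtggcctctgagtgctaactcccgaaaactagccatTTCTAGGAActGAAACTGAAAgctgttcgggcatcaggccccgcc

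The ISRE core was found in the window of 13 of the 22 members, 59.1%, against 3.85% of the 10679 genes of the count table that had a window. It was in 8 of 12 type I and 5 of 10 gamma-type members. The GAS letters were in 7 of the 22, 31.8%, against 8.48%, and split 3 of 12 and 4 of 10. Both motifs stood in Bst2, Oas1a, Gbp7 and Igtp. A match is a description of letters and not a site shown to be bound.

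The libraries held 5250569 to 11207442 counts in kept cells, with medians of 65416 to 142675 counts per cell. The HSC markers Procr, Ly6a, Kit, Mecom, Hlf and Mllt3 were found in most cells of every library, and Slamf1 (CD150) in 75 of 292. Cells whose own RNA is rich in interferon response genes were looked for through their markers: of the macrophage and monocyte list 5 of 8 genes were in the table and summed to 12.5 to 33.9 CPM per library (Cd68 in 32 cells, C1qb in 3, Ly6c2 in 1). Of the plasmacytoid dendritic list 4 of 6 were in the table and summed to 351 to 434 CPM, with Tcf4 in 190 cells, the member Bst2 in 189, Irf8 in 23 and Siglech in 2. Other blood cell markers were also seen, with Klrb1c in 53 cells and Cd3e in 1, Cd79b in 109, S100a8 in 72 and Elane in 1, and Hba-a1 in 102. The part of such RNA in the members' values was not tested. All 91 cell numbers occurred in more than 1 library, and a number was taken to mark a different cell in each. A stretch of 8 consecutively numbered cells in library 2 and another of 7 in library 4 stood apart from all others in their whole profile. The main results are given with and without these 15 cells, whose members are described near the end. Leaving them out moved the mean share of cells of a member by between -1.33 and 2.20 percentage points. It took the mean level to between 0.94 and 1.03 times the value given, except for Ifi27l2a, at 0.60 times.

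To compare cells at 1 depth, counts were drawn at random down to 30000 in every cell (thinning), which left 276 cells (72, 70, 64 and 70). A member was called tonic where at least 50% of these cells had a count of it in each of the 4 libraries. It was called bursty where its mean share was under 50% and also lower than that of at least 90% of the 200 genes nearest to it in mean level, so that its counts sat in fewer cells than usual for such a level. The remaining members were called intermittent. Levels are in CPM, a gene's summed counts scaled to the same total for every library. The protocol enriched 3′ ends, and counts were not divided by gene length, so levels of different genes are not ranked.

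Tonic members numbered 7, of which 5 were gamma-type: Psmb8, Psmb9 and Psmb10, the catalytic subunits of the immunoproteasome that cuts peptides for class I presentation, Ifi47, an immunity-related GTPase, and Irf1, a transcription factor of the interferon gamma response. The other 2 were the type I members Ifi203, a nuclear protein of the interferon-inducible p200 family, and Bst2 (tetherin), which holds budding virions at the cell surface. The 7 made up 24.1% of the members. Of all 13199 genes with a count in thinned cells 7.96% were tonic, and of the 9805 genes of at least 5 CPM 10.7%. These shares are not matched for level. Of the 200 genes nearest in level, 35.5% were found in more cells than Psmb10, 43% than Psmb9 and 47% than Psmb8. For Ifi203, Irf1, Ifi47 and Bst2 the values were 53.5%, 66%, 68.5% and 81%.

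Psmb8 had a count in 95.8%, 85.7%, 93.8% and 91.4% of thinned cells of libraries 1 to 4, at 622, 625, 567 and 518 CPM. It was the most widely spread member, 91.7% ± 4.4 of cells (mean ± SD, n = 4 libraries). Psmb9 followed among gamma-type members with 84.7%, 75.7%, 75% and 64.3% of cells and 322, 388, 292 and 264 CPM. Psmb10 was found in 62.3% ± 4.1 of cells, at 223, 219.9, 179 and 175 CPM. The 3 subunits thus varied little between libraries, with the highest library 1.21, 1.47 and 1.27 times the lowest.

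Ifi47 was found in 56.9%, 74.3%, 68.8% and 65.7% of cells, at 239.6, 388, 202 and 217 CPM. Irf1 was found in 55.6%, 64.3%, 53.1% and 54.3%, at 151, 311, 175 and 140.1 CPM. Library 2 was the highest in both genes, and libraries 1, 3 and 4 lay close together. Ifi203 was found in 81.9%, 80.0%, 73.4% and 75.7% of cells, at 360.4, 372, 289 and 284 CPM, and Bst2 in 63.9%, 55.7%, 62.5% and 51.4%, at 238, 228, 228 and 200.05 CPM. Bst2 and Irf1 lay just inside the limit of 50%.

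Just outside that limit were Oasl2, an oligoadenylate synthetase-like protein, and Gbp7, a guanylate-binding protein. Oasl2 averaged 51.9% ± 8.1 of cells but had only 40.3% in library 1, and Gbp7 averaged 52.0% ± 6.0 but had 45.3% in library 3. Their levels were 119, 231, 149.5 and 167 CPM for Oasl2 and 171, 210.0, 145 and 142 CPM for Gbp7. The tonic class therefore has no gap at its edge. The 7 tonic members were also tonic without the runs and without any 1 library. In the 60% version of the rule 3 of the 29 members were tonic (Ifi203, Psmb8 and Psmb9), against 7.56% of genes of at least 5 CPM. Without the 123 cells that had a count of a cycling marker 4 of 29 were (Ifi203, Ifi47, Psmb8 and Psmb10), against 9.98%. In both versions the members thus lay nearer to the share of all genes than under the main rule.

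**Figure D1:**
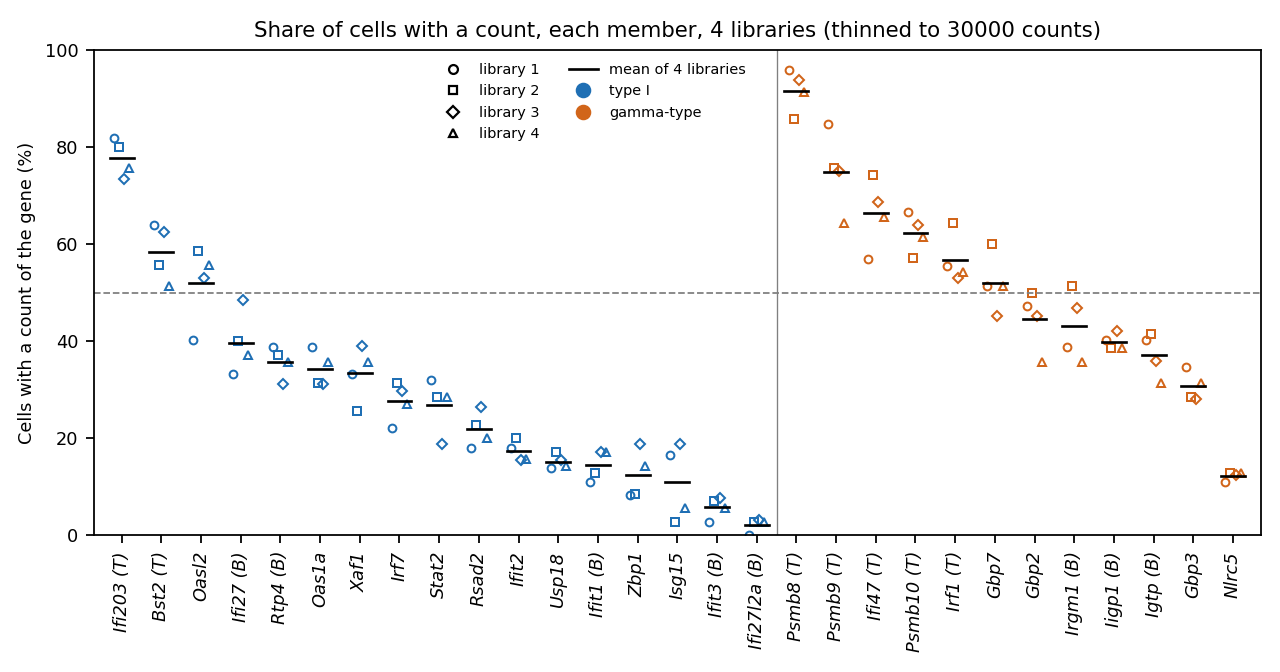
Share of thinned cells with a count of each member (y axis, %) in the 4 libraries (symbols), with the mean as a bar; type I members are blue, gamma-type orange, (T) marks tonic and (B) bursty members, and the dashed line is at 50%. Gamma-type members reach from 12.3% (Nlrc5) to 91.7% (Psmb8) and type I members from 2.21% (Ifi27l2a) to 77.8% (Ifi203).

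Bursty members numbered 8, or 27.6% of the members, against 9.35% of the 9805 genes of at least 5 CPM. They were the type I members Rtp4, Ifi27, Ifit1, Ifit3 and Ifi27l2a and the gamma-type members Igtp, Iigp1 and Irgm1. Without 1 cell, cell 39 of library 2, the bursty members were 5 (Ifi27l2a, Rtp4, Ifi27, Iigp1 and Igtp), against 9.36% of genes. Without the 15 cells of the runs they were 6 (Ifit1, Ifit3, Rtp4, Ifi27, Iigp1 and Igtp), against 9.34% of genes. Ifi27l2a then fell under 5 CPM and was not tested. Rtp4, Ifi27, Iigp1 and Igtp were bursty in both versions.

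Rtp4, a chaperone of receptor transport that is strongly induced by interferon, had 140.2, 157, 186 and 159 CPM in libraries 1 to 4 and was found in 38.9%, 37.1%, 31.2% and 35.7% of cells. All 200 genes nearest to it in level were found in more cells. Ifi27, a small mitochondrial protein, had 165, 198, 210.3 and 141 CPM and was found in 39.7% ± 6.4 of cells, most in library 3 (48.4%), with 99.5% of its nearest genes more widely spread. Both were thus even between libraries and uneven between cells.

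Igtp, Iigp1 and Irgm1 are immunity-related GTPases, which act on the vacuoles of intracellular parasites and bacteria. Igtp had 171, 214, 165 and 109 CPM and was found in 40.3%, 41.4%, 35.9% and 31.4% of cells. Iigp1 had 142, 247, 176 and 117 CPM and was found in 40.3%, 38.6%, 42.2% and 38.6% of cells. Irgm1 had 117, 225, 132 and 102 CPM and was found in 38.9%, 51.4%, 46.9% and 35.7%. For Iigp1 the level in library 2 was 2.12 times that in library 4, and the share of cells was the same in both. The mean counts per positive cell were thus higher in library 2. Cell 39 held 26.1% of the Iigp1 counts of library 2, and without it the level was 186 CPM, 1.60 times that in library 4. For Igtp 99.5% of the nearest genes were more widely spread, for Iigp1 98.0% and for Irgm1 93.0%, which fell to 89.0% without cell 39.

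Ifit1, which binds foreign RNA, and Ifit3, of the same family, were found in few cells. Ifit1 had 21.6, 74.9, 60.4 and 46.0 CPM and was seen in 8, 9, 11 and 12 thinned cells of libraries 1 to 4. Ifit3 had 7.29, 45.9, 6.86 and 16.95 CPM and was seen in 2, 5, 5 and 4 cells. The high level of library 2 in both came from cell 39, which held 66.2% of that library's Ifit1 counts and 69.3% of its Ifit3 counts. Without it the levels of library 2 were 25.8 and 14.3 CPM, and 81.0% and 78.0% of the nearest genes were more widely spread than Ifit1 and Ifit3.

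Ifi27l2a, a relative of Ifi27, was the rarest member, with 0, 5.07, 8.57 and 11.8 CPM. It had a count in 7 of 292 cells and in none of 74 in library 1, which allows a share of up to 4.05% there. In libraries 2, 3 and 4 single cells held 78.0%, 55.6% and 88.6% of its counts. The cell in library 4 belongs to the run. No more can be read from so few cells.

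**Figure D2:**
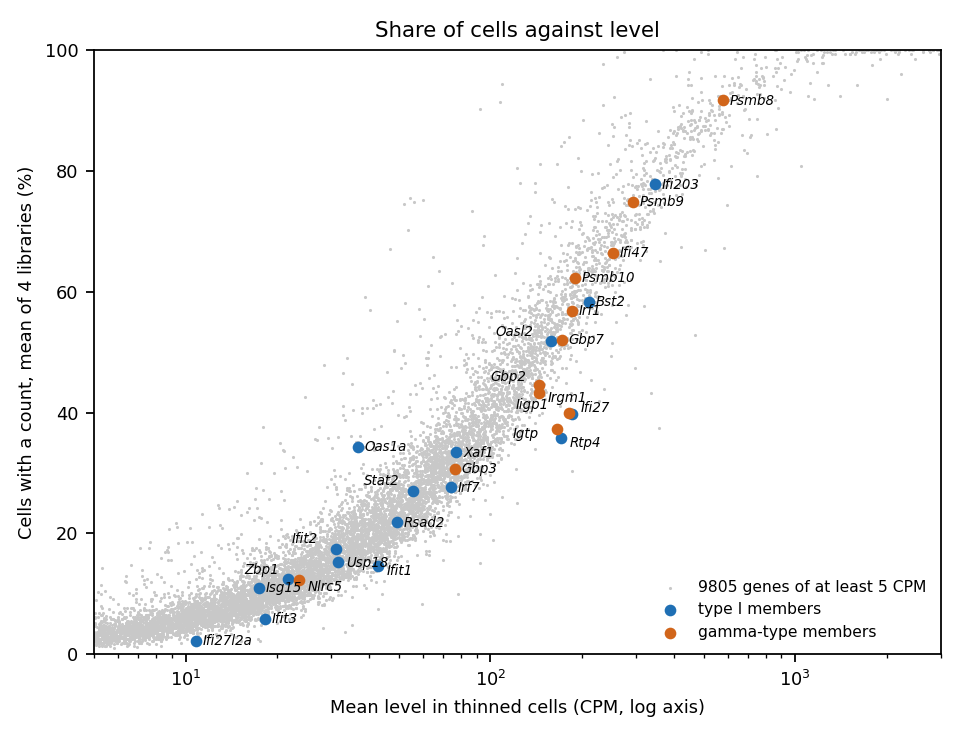
Mean share of cells with a count (y axis, %) against mean level in thinned cells (x axis, CPM, log axis) for 9805 genes of at least 5 CPM (grey), with the type I members in blue and the gamma-type members in orange. Rtp4, Igtp, Iigp1 and Ifi27 lie below the band of genes of their level, and Oas1a lies above it.

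The other 14 members were intermittent. Oas1a, an oligoadenylate synthetase of the pathway that degrades viral RNA, went the opposite way from the bursty members: it was found in 34.3% ± 3.7 of cells, and only 2.5% of the genes nearest in level were found in more. Its levels were 34.5, 49.8, 27.4 and 35.8 CPM. Gbp2, with 125, 165, 132 and 100.4 CPM and 44.6% ± 6.2 of cells, was close to the bursty limit, with 88.5% of its nearest genes more widely spread. Gbp3, with 75.3, 96.3, 63.0 and 64.6 CPM, and Xaf1, an inhibitor of the antiapoptotic XIAP, with 85.7, 55.9, 86.8 and 65.5 CPM, were found in 30.7% ± 3.0 and 33.5% ± 5.7 of cells.

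Of the regulators, Irf7, the transcription factor that amplifies type I interferon production, had 60.6, 110.0, 74.8 and 65.3 CPM and was found in 27.6% ± 4.0 of cells. Stat2, the type I signal transducer, had 63.8, 72.6, 45.9 and 56.7 CPM and was found in 27.0% ± 5.7. Usp18, which removes Isg15 and dampens signalling at the type I receptor, had 38.1, 37.7, 48.9 and 32.8 CPM and was found in 15.2% ± 1.5. Nlrc5, the transactivator of class I genes, had 29.3, 22, 9.52 and 29.5 CPM and was found in 12.3% ± 0.83. The 4 regulators were therefore seen in a minority of cells in every library. Irf1 was the exception among the regulators, as given above.

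Isg15, a ubiquitin-like modifier and often the first marker of an interferon response, was found in 16.7%, 2.86%, 18.8% and 5.71% of cells, at 20.2, 6.30, 34.9 and 12.2 CPM. Libraries 1 and 3 were thus well above libraries 2 and 4, and of the 51 counts of library 2 cell 39 held 28. Rsad2 (viperin), an antiviral enzyme, had 24.4, 95.5, 94.8 and 50.9 CPM in 21.9% ± 3.7 of cells, and cell 39 held 52.1% of the counts of library 2. Zbp1, a sensor of Z-form nucleic acid, had 18.4, 13.3, 29.3 and 33.3 CPM in 12.5% ± 5.0 of cells, and Ifit2 22.9, 44.0, 24.0 and 26.6 CPM in 17.3% ± 2.1. At such levels most cells with no count cannot be told from cells with a low level.

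Taken by type, the type I members had a median share of 27.0% of cells and the gamma-type members 48.3%. Under 20% were 7 of 17 type I members (Ifit1, Ifit2, Ifit3, Isg15, Ifi27l2a, Usp18 and Zbp1) and 1 of 12 gamma-type members (Nlrc5). Neither contrast is matched for level. Set against the genes nearest in level, the types were close. A median of 65.5% of such genes were found in more cells than a type I member, and 67.5% than a gamma-type member. Bursty members were 5 of 17 type I and 3 of 12 gamma-type members. The type I members summed to 1421, 1797, 1606 and 1404 CPM, 1557 ± 184 (n = 4), and the gamma-type members to 2388, 3111, 2239 and 1978 CPM, 2429 ± 486. The ratio of the sums was 0.59, 0.58, 0.72 and 0.71 in libraries 1 to 4, and 0.64 ± 0.067 without the runs, where the sums were 1748 and 1344 CPM (type I) and 3032 and 1979.6 CPM (gamma-type) in libraries 2 and 4. Both its size and its direction depend on the genes listed. Without Psmb8, Psmb9 and Psmb10 the gamma-type sums were 1221, 1879, 1200.1 and 1022 CPM, below the type I sums in libraries 1, 3 and 4.

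Library 2 had the highest level of 18 of the 26 members of at least 20 CPM, 69.2%, where 27.2% of all 6676 such genes were highest in it. Libraries 1, 3 and 4 were the highest in 2, 4 and 2 members, against 23.9%, 25.9% and 23.1% of genes. Among gamma-type members 10 of 12 were highest in library 2, and 9 of 12 were lowest in library 4. Of all 26 members 13 were lowest in library 4, against 26.7% of genes. Without the runs 17 of 26 were highest in library 2, against 27.4%. Without cell 39 the count was 14 of 26, against 27.4% of genes. Without the 5 cells of each library with the highest summed member level it was 15 of 26, against 27.5%. The sum of all members, 3809, 4909, 3844 and 3382 CPM, then became 3470.4, 4139.8, 3534 and 3107 CPM, and library 2 was 1.33 times library 4 in place of 1.45.

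Single cells were compared next. The median summed level per cell was 3399, 3595, 3363 and 3053 CPM in libraries 1 to 4, a 1.18-fold range, whereas the means spanned 1.43-fold. The cell at the 90th percentile reached 5922, 8961, 7833 and 5418 CPM. The medians thus lay closer together than the means, and the 90th percentile was higher in libraries 2 and 3. For the gamma-type members the medians were 2093, 2419, 2055 and 1870 CPM, so library 2 was the highest there too, 1.29 times library 4. Without the runs the medians of all members were 3399, 3247, 3363 and 3064 CPM, with library 2 no longer the highest, and those of the gamma-type members 2093, 2289, 2055 and 1808 CPM. Between libraries, 7 of 26 members differed by more than 2-fold (Ifit1, Rsad2, Irf1, Iigp1, Irgm1, Zbp1 and Nlrc5). That share, 26.9%, is near the 29% of all genes. Without library 2 there were 4 such members: Ifit1, Rsad2, Nlrc5 and Isg15, whose mean then passed 20 CPM. The share of all genes without library 2 is not given here, so nothing is read from that count. Without cell 39 Iigp1 and Irgm1 spanned 1.60-fold and 1.97-fold, and Irf1 2.05-fold. Ifit1, Rsad2, Zbp1 and Nlrc5 then spanned 2.80-fold, 3.88-fold, 2.45-fold and 3.10-fold. Ifit3 and Isg15, whose mean over all 4 libraries lay under 20 CPM, spanned 6.69-fold and 5.53-fold. Without library 2 they spanned 2.47-fold and 2.85-fold, and without cell 39 alone 2.47-fold and 12.05-fold. No library was labelled apart from the others, so no test between them was made. None of the 26 members had 1 library far from the other 3 for their spread (Dixon's ratio), against 5.12% of all genes.

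**Figure D3:**
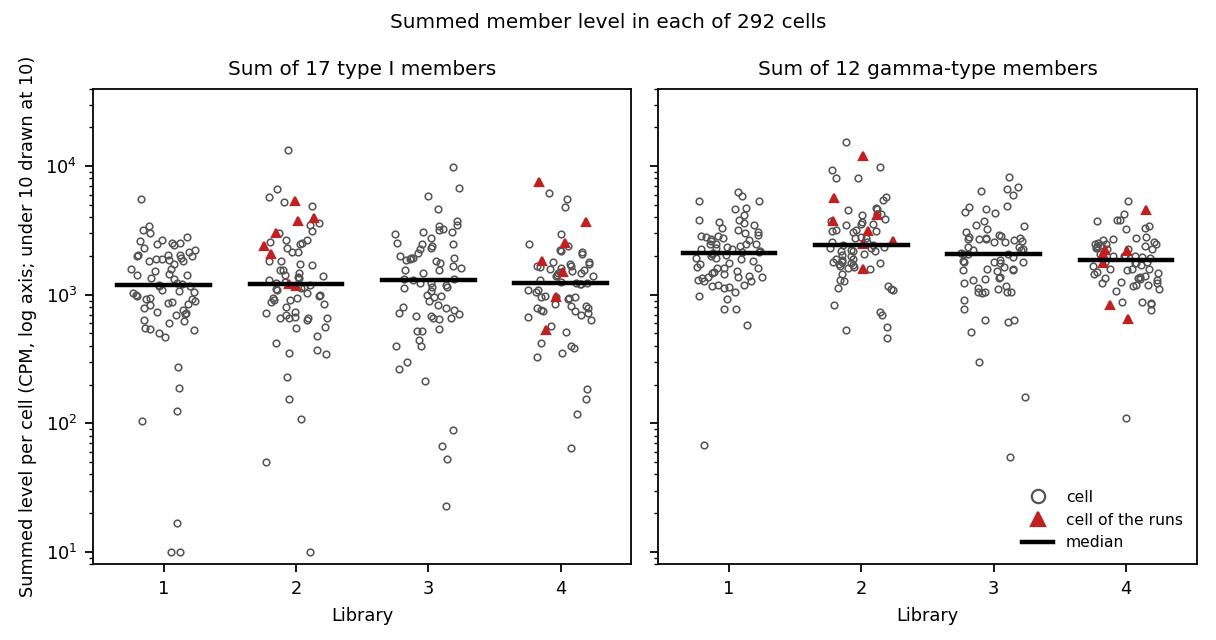
Summed level of the 17 type I members (left) and the 12 gamma-type members (right) in each of 292 cells (y axis, CPM, log axis, with values under 10 drawn at 10) by library (x axis); bars are medians, and red triangles are the 15 cells of the runs. The highest cell in both panels is cell 39 of library 2, at 13206 and 15471 CPM, and the medians of the 4 libraries lie close together.

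Cell 39 of library 2, with 139939 counts, had a count of 25 of the 29 members and 28677 CPM in them, against a median of 3595 CPM in its library. It had 523 counts of Iigp1, 476 of Ifi47, 403 of Rsad2, 401 of Ifit1 and 257 of Ifit3, and none of Ifi27, Ifi27l2a, Zbp1 or Nlrc5. It thus carried members of both types. The highest cell of library 3, cell 87, had 27 of 29 members and 16435 CPM, with Rtp4 and Iigp1 leading at 135 and 134 counts. Of the 10 cells with the highest sums 7 were in library 2, 2 in library 3 (cells 87 and 88, which are consecutive in number) and 1 in library 4, and 2 of the 10, cell 29 of library 2 and cell 16 of library 4, belong to the runs. In thinned cells the number of members with a count ran from 2 to 26, with medians of 11, 11, 10.5 and 10 in libraries 1 to 4.

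Whether members rise in the same cells was described by Spearman rho over the thinned cells of each library, for the 21 members found in at least 20% of cells. The cells of a library share its pooling and sequencing, and depth was made equal, so these values carry no p. Of 210 pairs 83 had a positive rho in all 4 libraries, 39.5%, against 9.49% of all gene pairs, and without the runs 78, or 37.1%, against 8.76%. The median rho was 0.14 among type I members, 0.10 among gamma-type members and 0.098 between the types, against 0.015 for all gene pairs. All of these are weak, and differences between the kinds of pair were not tested. Among members in at least 40% of cells the type I median was 0.042, but it rests only on the pairs among Bst2, Oasl2 and Ifi203.

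The highest pair was Igtp with Irgm1, with a rho of 0.24, 0.37, 0.28 and 0.42 in libraries 1 to 4. Next came Stat2 with Rtp4 (0.37, 0.40, 0.30 and 0.22) and Oasl2 with Rtp4 (0.27, 0.43, 0.45 and 0.12). Xaf1 with Gbp7 averaged 0.29 and Irf7 with Oas1a 0.28. These 5 pairs were positive in every library, also without the runs, where Igtp with Irgm1 averaged 0.30. Irgm1 was positive in all 4 libraries with 15 of its 20 partners, Rtp4 and Stat2 with 12 each, and Irf7, Oasl2 and Igtp with 11. Ifi27 with 2, Irf1 and Psmb10 with 3 each and Bst2 with 4 stood at the other end, and Ifi27 was negative in all 4 libraries with Igtp, on average -0.090, and with Oas1a, on average -0.043, though in neither case without the runs. Without the runs the counts were 13 for Irgm1 and Stat2, 12 for Irf7, 11 for Rtp4, 10 for Oasl2 and 7 for Igtp. Psmb10 then had 2, Ifi27 and Bst2 3, Psmb9 4, Gbp2 5 and Irf1 6. Bst2, found in most cells, hence followed the other members little, and Irf1 did so with the runs included.

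**Figure D4:**
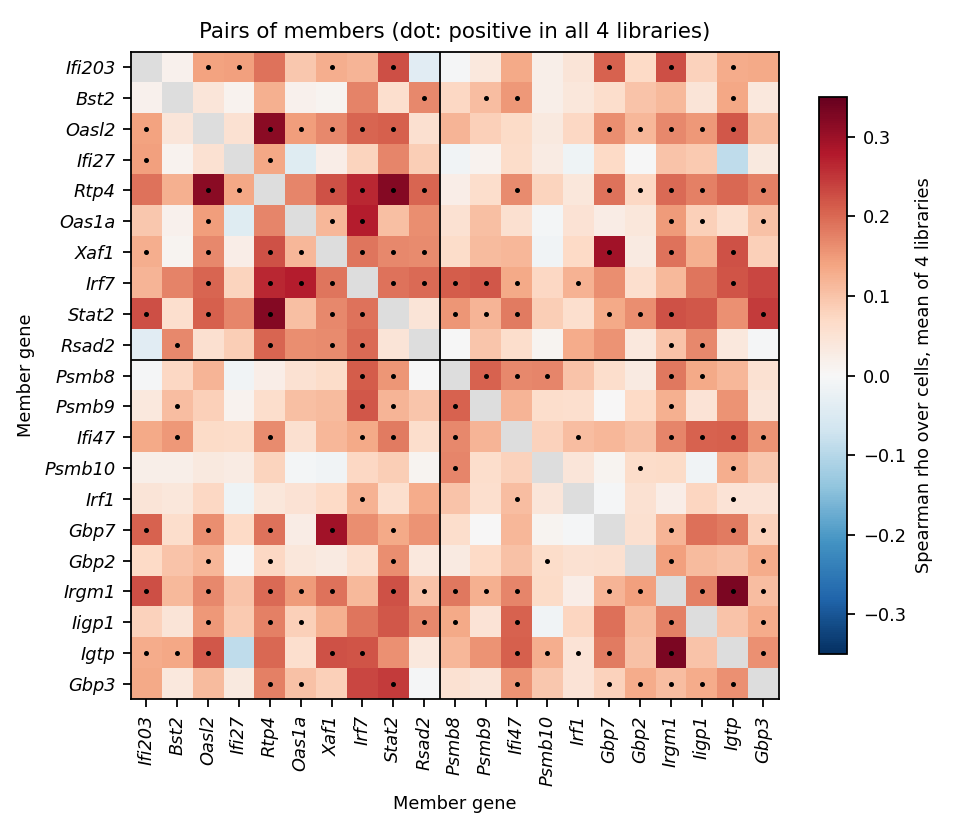
Spearman rho over thinned cells for each pair of the 21 members found in at least 20% of cells (colour, mean of 4 libraries), type I members first and gamma-type members after the line; a dot marks a pair that is positive in all 4 libraries. The darkest square is Igtp with Irgm1 at 0.33, and the rows of Ifi27, Irf1 and Psmb10 are pale.

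Of the rarer members Ifit1 and Isg15 were each set against the other 28 members, by the share of thinned cells with a count. Irf7 was in 24 of the 40 cells with Ifit1, against 52 of the 236 cells without it. Besides Irf7, a higher share in Ifit1 cells in all 4 libraries was seen for Isg15, Stat2, Zbp1, Rtp4, Gbp2, Irgm1 and Psmb8, which makes 8 of 28 members, against 5.22% of genes of at least 5 CPM. Psmb10 was lower in all 4 libraries, with 55% against 63.6%, and Nlrc5 was lower in 3, with 7.5% against 13.1%. The share of all genes that were lower in all 4 libraries is not given here, so nothing is read from the lower members. Ifit2, of the same family as Ifit1, was in 8 of the 40 cells, against 16.9% of the others.

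Usp18 was in 10 of the 30 cells with Isg15, against 32 of the 246 others. With Isg15 7 of 28 members were higher in all 4 libraries (Ifit1, Irf7, Oasl2, Ifi203, Usp18, Rtp4 and Psmb10), against 4.24% of genes. Irf1 was lower in all 4, with 46.7% against 58.1%, from which again nothing is read. Zbp1 differed little, with 13.3% against 12.2%. Without the runs the counts were again 8 with Ifit1, against 5.11%, where Bst2 stood in place of Psmb8, and 7 with Isg15, against 3.92%. Irf1 was then lower in 3 libraries. Library 2 held only 2 thinned cells with Isg15.

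A type I and a gamma-type score was made for each cell from the scaled log levels of the 21 members. The scores had a rho of 0.24, 0.44, 0.47 and 0.42 with each other in libraries 1 to 4, 0.39 ± 0.10. With a member left out of its own score, 18 of 21 members were positive in all 4 libraries with the type I score, against 13.3% of 4569 genes, and 18 of 21 with the gamma-type score, against 11.5%. None was negative in all 4, against 3.52% and 3.63% of genes. Without the runs 18 and 17 were positive, against 14.2% and 12.1%, and again none was negative throughout, against 2.8% and 3.46%. The scores also had a rho of 0.17 ± 0.088 and 0.19 ± 0.12 with the total counts of a cell before thinning, and its part in the other values was not tested.

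Other genes of the pathway were read from fixed lists. Of 10 interferon genes only Ifnb1 was in the table, with counts in 1 cell. Of the 6 receptor chains Ifngr1 was tonic at 145, 161, 134 and 151 CPM in 54.8% ± 2.7 of cells, and Ifnar1, Ifnar2 and Ifngr2 were found in 32.9% ± 7.3, 25.2% ± 5.0 and 16.1% ± 4.1. Of 12 kinases and transcription factors Jak1 was tonic, in 81.7% ± 4.9 of cells, followed by Irf2, Irf9 and Stat3 with 57.6%, 51.5% and 51.4%. Of 10 negative regulators 1 was tonic, Ptpn6, with 79.0% ± 3.8. Ifngr1 and Jak1 were thus read in more cells than Irf7 or Stat2, whereas Ifnar2 and Ifngr2 were not.

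Of the 40 other type I effectors measured, 8 were tonic and 5 bursty (Mx1, Ifit3b, Ifit1bl1, Parp14 and Slfn2), and the 4 with the highest shares were Ifitm1, Ifitm3, Ifitm2 and Ly6e, found in 96.7% to 100% of cells. Of 16 other gamma-type effectors 3 were tonic (Tgtp2, Ube2l6 and Tgtp1) and 3 bursty (Gbp4, Gbp8 and Cxcl10). Of 15 class I antigen presentation genes 10 were tonic, led by B2m, H2-K1, H2-D1 and H2-T23. None of 11 nucleic acid sensors was tonic, and Ifih1 and Ddx58 were the most widely spread with 31.9% and 30.0% of cells. Beside these counts stand the shares of all genes given above, 10.7% tonic and 9.35% bursty, and nothing is read from the bursty counts.

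Irf9 had a rho of 0.25 ± 0.078 with the type I score and 0.18 ± 0.081 with the gamma-type score, positive in every library. The class I score had 0.25 ± 0.12 and 0.35 ± 0.12. Ly6a, which encodes Sca-1 and is itself inducible by interferon, had 0.19 ± 0.15 and 0.16 ± 0.13, with 1 library below 0 for the type I score. Scores of immediate early, HSC identity, dormancy, lymphoid and cycling genes had a mean rho between -0.077 and 0.087 with either score, and none had the same sign in all 4 libraries with both. Cd27, the gene of the marker used in the sort, had 0.060 ± 0.12 and 0.077 ± 0.091.

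Outside the interferon and antigen presentation lists, Gm4951, an immunity-related GTPase gene, was highest with both scores, 0.32 ± 0.12 and 0.30 ± 0.17. With the type I score Tmed4, Agk, Grn, Galk2, Gtf2b, Anapc13, Inpp5k, Cdc37 and Sdhaf1 followed at 0.20 to 0.26, and Fam168b, Nrip1, Hp1bp3, Eif4a1 and Itga6 were lowest at about -0.17. With the gamma-type score Apobec3, a restriction factor of retroviruses, followed at 0.25 ± 0.12, then Impdh1, Ppp1r2, Psma1, Serpina3g, Naxe, Ccl27a, Capza2 and Gpbp1 at 0.20 to 0.23, with Arglu1, BC005537, Plxnc1, Pura and E2f4 lowest at -0.18 to -0.22. Agk, Naxe and BC005537 did not keep 1 sign in all 4 libraries without the runs. These are the extremes of 4569 genes with weak values in sparse counts. They describe these cells and are no finding on the genes.

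The 15 cells of the runs, cells 26 to 33 of library 2 and 10 to 16 of library 4, had a median of 59082 counts against 128149.5 in the 132 other cells of those libraries. They stood apart in the members too. Psmb8, the most widely spread member elsewhere, had a count in 5 of the 15 at a mean of 6.81 CPM, against 96.2% of the other cells at 598 CPM. Irf7, Rsad2 and Usp18 had no count in any of the 15, which allows a share of up to 20.0%, against 37.9%, 28.0% and 21.97% of the other cells. Of all genes of at least 20 CPM 17.2% had no count in these cells.

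Other members were higher there. Ifi203 had a count in 14 of the 15 at a mean of 703 CPM against 326 CPM, Ifi27 in 10 at 568 against 158 CPM and Rtp4 in 7 at 446 against 138 CPM. Gbp3 had a count in 8 at 220.1 against 63.7 CPM, 2 of them in library 2 and 6 in library 4. Gbp2 went the other way, with a count in 7 run cells of library 2 and 1 of library 4. Of the 26 members of at least 20 CPM 16 had the higher mean in the runs, against 35.8% of all such genes. Since the cells were found by their whole profile, these are descriptions, and gene by gene the runs were higher in some members and lower in others.

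**Figure D5:**
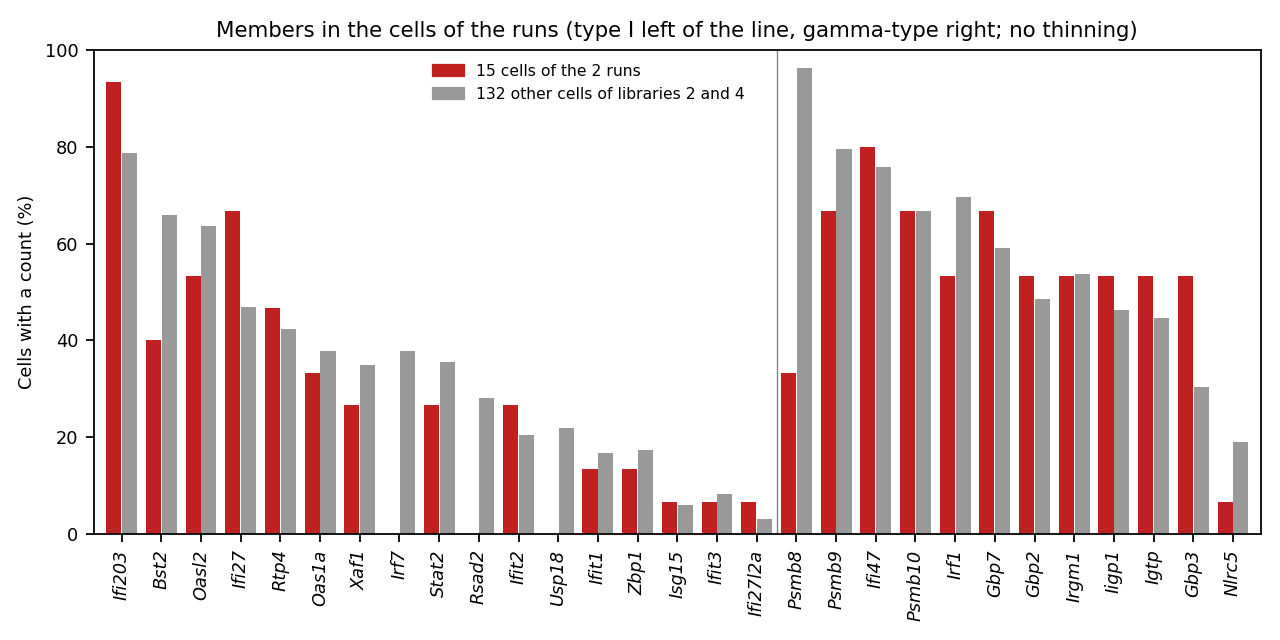
Share of cells with a count of each member (y axis, %, from 0) in the 15 cells of the runs (red) and in the 132 other cells of libraries 2 and 4 (grey), without thinning; type I members are left of the line and gamma-type members right. Psmb8 is at 96.2% in the other cells and at 33.3% in the runs, and Irf7, Rsad2 and Usp18 have no red bar.

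Set against their promoters, all 4 bursty members with a window (Ifit1, Ifit3, Igtp and Irgm1) held the ISRE letters, as did 7 of 11 intermittent members and 2 of 7 tonic members (Bst2 and Ifi203). The GAS letters were in 1 of 4 bursty, 3 of 11 intermittent and 3 of 7 tonic members (Bst2, Irf1 and Psmb8). The windows of Psmb8, Psmb9 and Irgm1 lie wholly inside their gene models, so the bases before those models were not read. These are small counts, 4 bursty members had no window, and Ifit1, Ifit3 and Irgm1 were not bursty without cell 39. The gene models also bear on single members. Irf7, Irf1 and Psmb9 overlap a gene of the count table on the opposite strand (Phrf1, Gm17334 and Tap1). Ifi203 and Igtp overlap 1 on the same strand (Mndal and Irgm2). Ifi47 and Rtp4 overlap protein-coding genes outside the count table (Olfr56 and Masp1). Usp18, Gbp2, Gbp7, Psmb8, Psmb10 and Nlrc5 overlap models of noncoding genes or a pseudogene. No source used here gives the annotation or strand setting of the counting, so reads of such pairs cannot be told apart. Ifit1, Ifit3, Oas1a, Ifi203, Iigp1, Ifi27, Ifi27l2a and the Gbp genes have close paralogs among which reads could have been divided, so their values are uncertain to that extent.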

How the data were processed

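The authors deposited a table of whole-number read counts, genes by cells, that had not been normalized. Per the submitters' processing notes the authors used Trimmomatic 0.36, HISAT2 2.1.0 and HTSeq 0.9.1 with the GRCm38 build. Strand setting, annotation and any collapse by molecular identifier are not given in the sources used here, so counts may hold PCR copies, and limits on shares of 0 cover counting error only. Per the labels' protocols 3′ ends were enriched. Cells were placed in libraries by name. No doublet caller was run, since cells were sorted singly into tubes. Members, lists and the rule for named genes (the most widely found, all bursty and variable members, 5 regulators and the extremes of each score) were chosen with earlier results of these data known. CPM used counts summed per library, and thinning used a fixed seed. The class rules and rho were also run on simulated data, with counts shuffled over the cells of a library and known patterns added. Such data lack the runs and other structure that cells share, and no result here rests on them. Alternatives used TMM (edgeR 4.0.16) and DESeq2 1.42.0 size factors on the library sums. Scripts ran in Python 3.11.15 and R 4.3.3. Gene positions came from GENCODE M21. Some genes of the pathway and marker lists are not reported here.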

Additional observations from a re-analysis of the deposited data

Results flagged for a closer look

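The share of cells with a count of Ifi27l2a was 0% in library 1 and 2.86%, 3.12% and 2.86% in libraries 2, 3 and 4, so library 1 lay far from the other 3 for their spread. The gene had a count in 7 of 292 cells, and a share of 0 in the 72 thinned cells of library 1 allows up to 4.17%. It was the only one of 62 groups of 4 libraries (levels and shares of 29 members and 4 sums) with a library so far apart. Chance alone does this in about 1 in 20 independent groups of normally distributed values. That rate does not carry over here, since the groups share genes and this share rests on few cells.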

How the results depend on the processing

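No paired analysis was possible because the 4 libraries form 1 group. Of the main results under other settings 131 values stayed close to those reported (within 1 SD over libraries, or within 1.5 times for a count) and 22 did not, and of single members' levels and shares 358 stayed within 1 SD and 32 did not. The exceptions among the main results follow. The median share of cells over members, 35.7%, was 42.8% without thinning, 37.7% and 38.3% thinned to 20000 and 50000 counts, 30.1% with at least 3 counts and 32.6% without cells with a cycling marker. Tonic members, 7, were 3 with at least 3 counts, 3 at 60% of cells and 4 without cells with a cycling marker. Of all genes of at least 5 CPM 7.63%, 7.56% and 9.98% were tonic under these settings. Bursty members, 8, were 5 without the cell with the highest summed level, an alternative chosen after seeing the data. Members over 2-fold between libraries, 7, were 13 without cells with a cycling marker. The median type I pair rho, 0.14, was 0.042 among genes in at least 40% of cells, where only Bst2, Oasl2 and Ifi203 remained. Genes other than members positive with the type I score in all libraries, 588, were 204 at 40% of cells and 391 without cells with a cycling marker. Those with the gamma-type score, 509, were 306 at 40%. Leaving out 1 library gave 879 to 995 and 839 to 915, where fewer libraries need to match in sign, and 7 to 8 tonic, 6 to 9 bursty and 4 to 7 variable members, a summed level of 3678 to 4187 CPM, a ratio of 0.63 to 0.67, a median share of 34.7% to 36.8% and median rho of 0.12 to 0.15 (type I), 0.082 to 0.13 (gamma-type) and 0.085 to 0.11 (between). The cause of the other changes was not tested. A limit of 20% mitochondrial counts kept the same cells. At the thinned depth a cell with no count cannot be told from a cell with a low level.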
